A study of Mus musculus with 6 samples.

Results

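The 9 genes described here bind, make, break down or read out retinoic acid, the signalling form of vitamin A: Crabp1, Crabp2, Aldh1a2, Aldh1a3, Dhrs3, Cyp26b1, Rara, Rarb and Rxrg. They were taken by name from a fixed list, and all 9 were found among the 19938 genes of the array table, each with 1 probe set. The list was drawn up with the mutant against control differences already in view, so the values of these 9 genes in that contrast are a description and are not tested. RNA was taken at embryonic day 14.5 from the mouse neocortex, the layered outer sheet of the forebrain. There were 3 mutants, Bcl11aΔflox/Δflox, homozygous for a floxed Bcl11a allele in its deleted state, and 3 controls, Bcl11a+/+. Each embryo gave 1 Affymetrix Mouse Gene ST array, and RNA was prepared from each embryo separately. Bcl11a encodes a zinc finger transcription factor that projection neurons of the cortex express. The labels call the mutants knockouts and name no Cre line, no cells in which it acted and no strain.

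Retinol is oxidised to retinaldehyde and then, by the retinaldehyde dehydrogenases of the Aldh1a family, to retinoic acid. Inside the cell the acid is carried by the CRABP proteins, is destroyed by the CYP26 enzymes, and acts through pairs of nuclear receptors, a RAR with an RXR, which sit on DNA at repeated half-sites. In the developing forebrain the meninges, the membranes around the brain, are known as a source of retinoic acid through Aldh1a2, and Rarb and Rxrg are known for their expression in the striatum beneath the cortex.

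Promoter sequences are shown for 3 genes: Crabp1 and Dhrs3, whose mutant and control arrays did not overlap, and Rarb, which carries a textbook response element. Each is the plus-sense strand of the gene from 250 bases before its start to 50 bases after it, from RefSeq on GRCm38.p6, with matches to the motifs searched in capitals. Dhrs3 has 3 windows in the table, and the first is shown.
Crabp1, chr9:54764498-54764797, plus strand: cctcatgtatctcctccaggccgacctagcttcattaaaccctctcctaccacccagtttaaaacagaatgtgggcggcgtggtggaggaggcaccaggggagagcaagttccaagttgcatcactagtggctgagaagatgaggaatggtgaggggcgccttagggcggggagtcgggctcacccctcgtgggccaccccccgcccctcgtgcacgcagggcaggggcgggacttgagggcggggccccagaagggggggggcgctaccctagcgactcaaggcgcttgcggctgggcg
Dhrs3, chr4:144892577-144892876, plus strand: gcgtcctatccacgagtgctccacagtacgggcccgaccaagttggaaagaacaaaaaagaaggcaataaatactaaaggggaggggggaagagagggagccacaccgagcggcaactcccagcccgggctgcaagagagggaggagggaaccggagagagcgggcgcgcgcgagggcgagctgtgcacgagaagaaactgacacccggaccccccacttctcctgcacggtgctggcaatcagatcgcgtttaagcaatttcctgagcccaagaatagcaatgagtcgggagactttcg
Rarb, chr14:16575427-16575726, minus strand: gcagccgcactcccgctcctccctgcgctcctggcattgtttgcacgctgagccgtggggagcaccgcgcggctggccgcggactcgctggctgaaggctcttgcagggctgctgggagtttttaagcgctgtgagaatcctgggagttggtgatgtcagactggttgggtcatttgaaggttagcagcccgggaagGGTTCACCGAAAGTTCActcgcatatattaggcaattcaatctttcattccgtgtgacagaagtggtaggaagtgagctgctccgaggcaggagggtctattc
The capitals in Rarb mark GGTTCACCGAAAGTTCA, a direct repeat of 2 receptor half-sites 5 bases apart, at chr14:16575513-16575529, from position -53 to -37 relative to the start. The half-site searched was AGGTCA. The form AGTTCA was taken as equal to it. The form GGGTCA was also allowed. So was the last form, GGTTCA. A match was any of these forms followed on the same strand by another of them after 5, 2 or 1 bases, and both strands were read. A repeat with 5 bases between occurred in 32 of 32851 promoter windows (0.0974%), with 2 bases in 0.268% and with 1 base in 0.222%. Of the 9 genes, 7 had promoters in the table, with 13 windows, and the Rarb element was the 1 match of this kind among them. TGACCA, the letters that human BCL11A binds in the fetal globin promoters, was searched on both strands and was found in 13.6% of all windows and in none of these 13. The absence of a match says only that these letters are not in these windows. Outside the 9 genes, Cyp26a1, which encodes a retinoic acid hydroxylase and is a known response gene, held a repeat with 5 bases between on the opposite strand, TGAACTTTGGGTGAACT at chr19:37697776-37697792, and TGACCA from position -7 to -2; its array values are given with the breakdown enzymes. TGACCA also occurred in a window of Stra6, the retinol uptake receptor gene, from position -69 to -64.

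Values are log2 expression. Groups were compared in limma over all 19938 genes, and a gene counted as called when its Benjamini-Hochberg adjusted p, two-sided and over all genes, was under 0.05. Of the 9 genes, 1 was called lower in the mutants, Crabp1, and none was called higher. Of all genes, 0.286% were called, 0.0401% lower and 0.246% higher in the mutants. The 2 groups were free of overlap in 2 of the 9, Crabp1 and Dhrs3, which was so for 10.5% of all genes. Since the list was chosen on this contrast, nothing is read from these shares. The median log2 difference of mutant minus control was 0.06 over the 9 genes and 0.019 over all genes. The difference was -0.95 for Crabp1 and 0.76 for Dhrs3, and lay between -0.03 and 0.41 for the other 7.

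**Figure D1:**
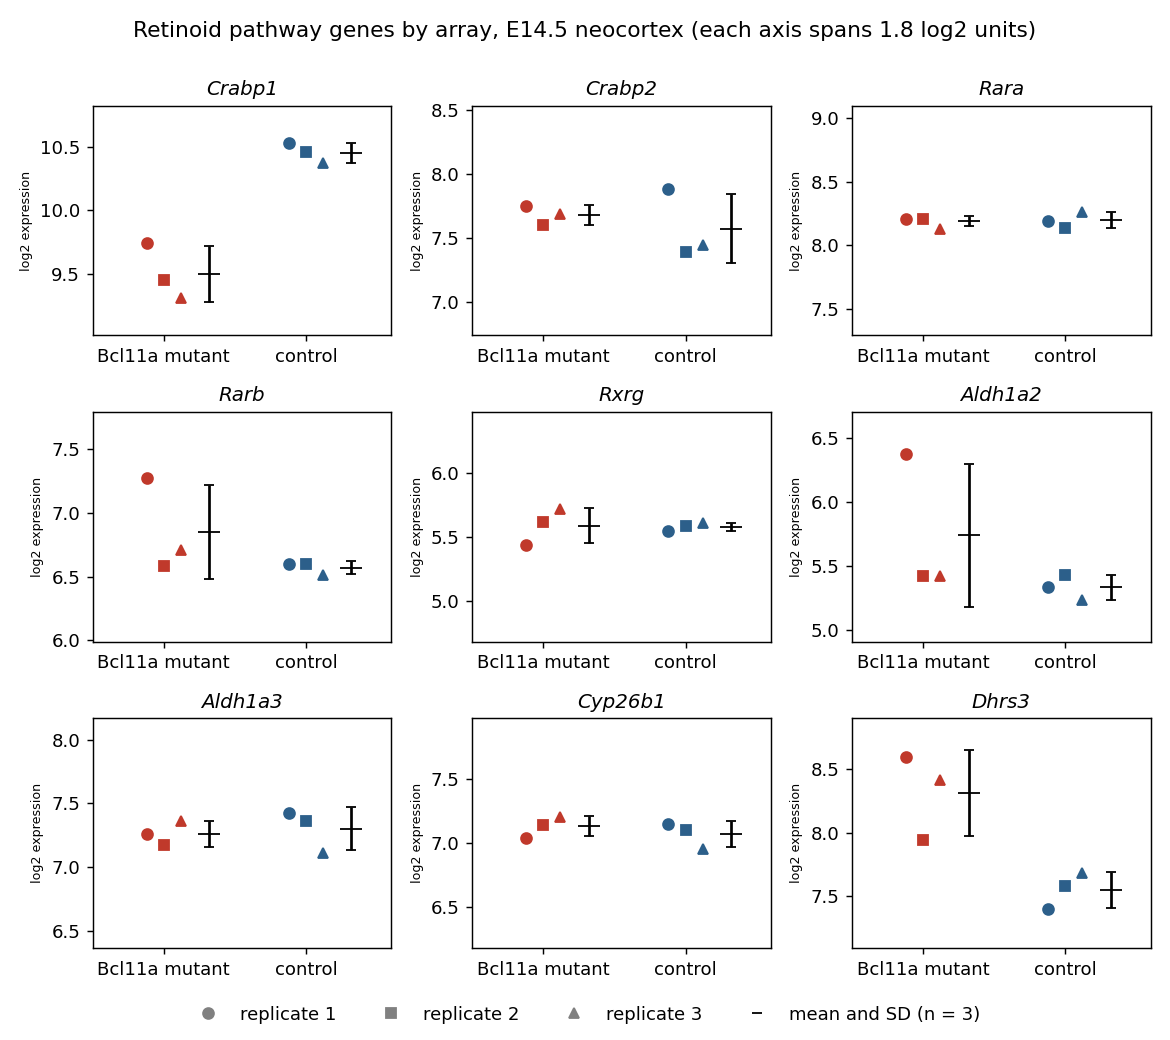
Log2 expression (y axis) of the 9 retinoid pathway genes in each array, mutants in red on the left and controls in blue on the right, with the mean and SD of 3 arrays in black and the same axis span of 1.8 log2 units in every panel. Crabp1 is lower and Dhrs3 higher in all 3 mutants, while Aldh1a2 and Rarb are highest in mutant replicate 1. For Rarb, mutant replicate 3 (6.71) also lies slightly above the controls (6.51 to 6.60).

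The targeted gene and the tissue were checked first. Bcl11a read 11.41, 11.49 and 11.34 in the mutants, against 12.20, 12.30 and 12.26 in the controls, and differed by -0.84 ± 0.06 on the log2 scale (SE; adjusted p = 0.00201 by limma). Its signal was lower but still present in every mutant, and the position of its probes against the deletion was not known here, so this check is partial. Tbr1, Neurod2, Neurod6, Fezf2 and Emx1, defining genes of neocortical neurons and progenitors, differed by -0.04 to 0.07, and the mean over these 5 was 11.74 to 11.80 in the mutants and 11.74 to 11.79 in the controls. Mutant replicate 1 stood apart in markers of meninges and pericytes, described with Aldh1a2. It was also the highest of the 6 arrays for 5 of 6 endothelial and 5 of 6 microglia markers. Of all genes, it was the highest for 27.6%. The endothelial list averaged 8.85 in that array and 8.36 to 8.62 in the others. The microglia list averaged 7.34 in that array and 7.17 and 7.18 in the other mutants, against 6.91 to 7.08 in the controls. All 6 microglia markers had positive differences, and 4 had every mutant above every control, where 7.69% of all genes did. Globin and other erythroid markers were higher in all 3 mutants, with 6 of 8 measured called, where 0.246% of all genes were called higher. The list was chosen with earlier results of these data known, so nothing is read from this share. It averaged 8.95 to 9.06 in the mutants and 7.54 to 7.72 in the controls. Sema3c, the semaphorin gene in the study's title, rose by 1.27 (limma adjusted p = 0.00201). By Xist, 1 mutant and 2 controls were female. No marker of choroid plexus (7 measured, differences of -0.06 to 0.10), progenitors (6, -0.17 to 0.21), endothelium (6, 0.04 to 0.32) or microglia (6, 0.05 to 0.45) was called.

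The binding proteins differed from each other. Crabp1 (Entrez 12903, chromosome 9), the cellular carrier that binds retinoic acid in the cytoplasm, read 9.74, 9.45 and 9.31 in the mutants, against 10.53, 10.46 and 10.37 in the controls. Every mutant lay below every control, and the gap between the groups was wider than the range within either one, 0.43 in the mutants and 0.17 in the controls. The means were 9.50 ± 0.22 in the mutants and 10.45 ± 0.08 in the controls (SD, n = 3 each), which is 1.94-fold lower in the mutants, with a log2 difference of -0.95 ± 0.11 (SE; 95% interval -1.20 to -0.71). Crabp1 had the most negative log2 difference of the 8 genes called lower, Bcl11a among them. Leaving out 1 array at a time gave -1.07 to -0.86. Crabp1 was not called without control replicate 2, at -0.95, or without mutant replicate 2, at -0.93. In bulk tissue, fewer cells of a type and less RNA per cell cannot be told apart.

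Crabp2 (Entrez 12904, chromosome 3), the paralog that hands retinoic acid to the nuclear receptors, read 7.75, 7.60 and 7.69 in the mutants, against 7.88, 7.39 and 7.44 in the controls. The groups overlapped, and control replicate 1 was the highest of the 6 arrays. The log2 difference was 0.11 ± 0.12 (SE), and its 95% interval of -0.17 to 0.39 covers changes from 0.89-fold to 1.31-fold. Without control replicate 1 the difference was 0.27. The interval of Crabp2 does not reach that of Crabp1, but the difference between these 2 genes was not itself tested.

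Markers of 2 neuron types that could share the dissected cortex were set beside Crabp1. Of 11 measured markers of GABAergic interneurons, none was called and 9 had positive differences. The mean over the list was 9.08 to 9.32 in the mutants and 9.04 to 9.27 in the controls. Npy and Sst, neuropeptide genes of interneurons, had differences of -0.60 and -0.50 (limma adjusted p = 0.353 and 0.478), and for both every mutant lay below every control. Lhx6, a transcription factor of interneurons from the medial ganglionic eminence, differed by 0.28. Of 9 markers of Cajal-Retzius cells, the reelin-producing neurons at the cortical surface, none was called and 6 had negative differences. That list averaged 8.11 to 8.26 in the mutants and 8.15 to 8.55 in the controls, with Calb2 at -0.68 and Ndnf at -0.62 (limma adjusted p = 0.179 and 0.516). Reln, the reelin gene, at -0.32 (limma adjusted p = 0.499) and Calb2 had every mutant below every control. Lhx5 at -0.37 and Ebf3 at -0.21 were also lower, with groups that overlapped. Nhlh2 at 0.31 and Lhx1 at 0.20, from the same list, had every mutant above every control (limma adjusted p = 0.575 and 0.498). Trp73 and Cacna2d2 differed by -0.00 and 0.01. An unadjusted limma p under 0.05 was reached by 7 of the 9, with 2 of them higher in the mutants. Of all genes, 6.05% passed that level. In the fit with array weights, Npy at -0.79 and Calb2 at -0.66 were called (limma adjusted p = 0.0402 and 0.0175). That fit called 217 of all genes, against 57 in the main fit. Neither Npy nor Calb2 was called in the main fit, with 1 array left out, or with sex or replicate number added. The part of these cells in the Crabp1 result was not tested.

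Among the enzymes that act on retinaldehyde and retinoic acid, Dhrs3 differed most. Dhrs3 (Entrez 20148, chromosome 4), the reductase that turns retinaldehyde back into retinol and which retinoic acid is known to induce, read 8.59, 7.94 and 8.41 in the mutants, against 7.40, 7.58 and 7.68 in the controls. All 3 mutants lay above all 3 controls, with mutant replicate 2 nearest to them. The means were 8.31 ± 0.34 in the mutants and 7.55 ± 0.14 in the controls (SD, n = 3 each), a 1.69-fold difference with a log2 value of 0.76 ± 0.15 (SE; 95% interval 0.41 to 1.11). Dhrs3 was not called over all genes. Leaving out 1 array at a time gave 0.62 to 0.95, and Dhrs3 was called in 1 of these 6 fits, the one without mutant replicate 2, at 0.95. Without mutant replicate 1, the array that stood apart, the difference was 0.62.

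Aldh1a2 (Entrez 19378, chromosome 9), the retinaldehyde dehydrogenase of mesoderm and meninges, read 6.38, 5.42 and 5.42 in the mutants, against 5.33, 5.43 and 5.23 in the controls. Mutant replicate 1 was high, and the other two mutants lay within the range of the controls. The SD was 0.56 in the mutants and 0.10 in the controls, and the log2 difference of 0.41 ± 0.23 (SE; 95% interval -0.11 to 0.93) was 0.09 without mutant replicate 1. Aldh1a3 (Entrez 56847, chromosome 7), the enzyme known from the lateral ganglionic eminence and the eye, read 7.26, 7.17 and 7.36 in the mutants, against 7.42, 7.36 and 7.11 in the controls. The groups overlapped fully, with a difference of -0.03 ± 0.09 (SE; 95% interval -0.25 to 0.18). Cyp26b1 (Entrez 232174, chromosome 6), which degrades retinoic acid, read 7.04, 7.14 and 7.20 in the mutants, against 7.15, 7.10 and 6.95 in the controls. Its difference was 0.06 ± 0.07 (SE; 95% interval -0.11 to 0.23), and the groups overlapped.

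The receptors showed no called difference. Rara (Entrez 19401, chromosome 11), the broadly expressed retinoic acid receptor alpha, read 8.21, 8.21 and 8.13 in the mutants, against 8.19, 8.14 and 8.26 in the controls. It had the smallest SE of the 9 genes, with a difference of -0.01 ± 0.06 (SE; 95% interval -0.15 to 0.13, or 0.9-fold to 1.09-fold). Rarb (Entrez 218772, chromosome 14), the receptor gene whose promoter element is printed above and which retinoic acid itself induces, read 7.27, 6.58 and 6.71 in the mutants, against 6.60, 6.60 and 6.51 in the controls. As with Aldh1a2, mutant replicate 1 was high and mutant replicate 2 lay within the controls. The difference of 0.28 ± 0.16 (SE; 95% interval -0.07 to 0.64) was 0.07 without mutant replicate 1. Rxrg (Entrez 20183, chromosome 1), the retinoid X receptor gamma of striatal and other neurons, read 5.44, 5.62 and 5.72 in the mutants, against 5.55, 5.59 and 5.61 in the controls. The mutants spread to both sides of the controls, and the difference was 0.01 ± 0.08 (SE; 95% interval -0.17 to 0.19). Rxrg, Rarb, Aldh1a2 and Cyp26b1 were dim, with means below 7.275, the median of all values. RMA may have compressed their differences.

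Of 9 measured markers of the ganglionic eminence and striatum, where Aldh1a3, Rarb and Rxrg are known to be expressed, 1 was called, Ebf1, a transcription factor of striatal neurons that rose by 0.88 (limma adjusted p = 0.019). Its call was lost in 5 of the 6 fits with 1 array left out (differences of 0.79 to 0.94 there). Gsx2, Isl1 and Drd1, defining genes of these territories, differed by 0.10, 0.10 and -0.03. Gsx2 and Isl1 were dim, with means of 5.95 and 6.14 in the mutants and 5.85 and 6.03 in the controls. The median of all values was 7.275, so their small differences say little. Sp8 had the lowest difference of the list, -0.23 (limma adjusted p = 0.727). The list averaged 7.35 to 7.38 in the mutants and 7.23 to 7.32 in the controls, a mean that includes Ebf1, its highest difference. Over the 9 markers, 5 differences were positive and 4 negative, with a median of 0.04.

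**Figure D2:**
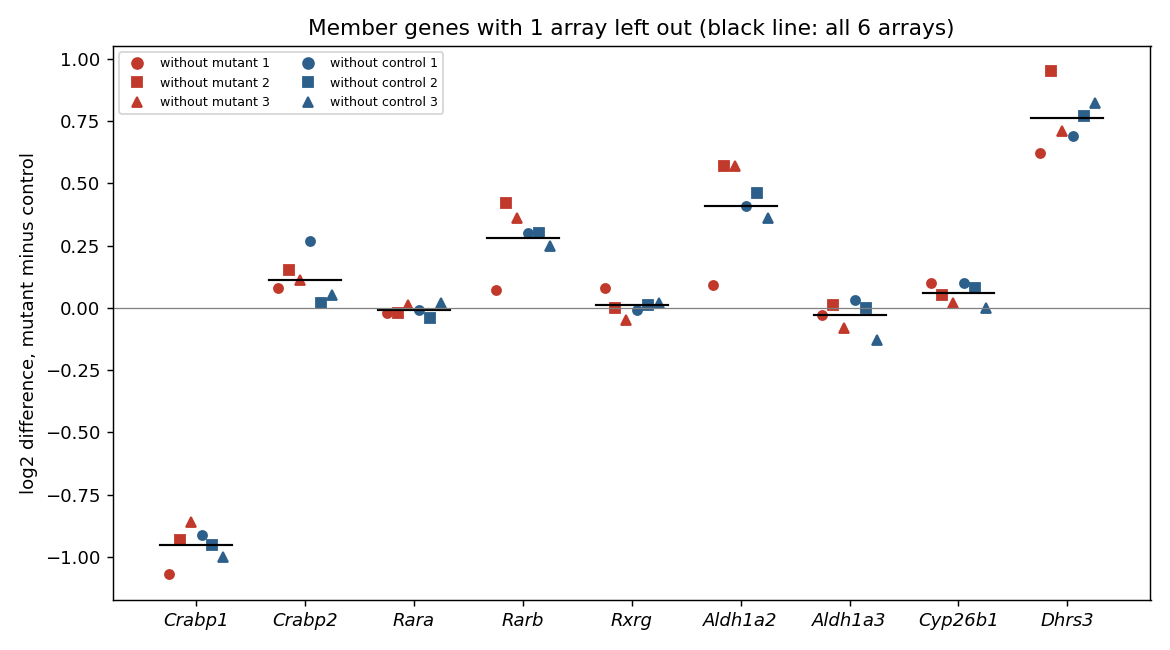
Log2 difference of mutant minus control (y axis) for the 9 genes, with all 6 arrays (black line) and with 1 array left out (red without a mutant, blue without a control). The Crabp1 points lie between -1.07 and -0.86 and the Dhrs3 points between 0.62 and 0.95, while Aldh1a2 is at 0.09 and Rarb at 0.07 once mutant replicate 1 is left out.

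The array that carried the Aldh1a2 and Rarb values was also high in some other genes of the pathway. Of 58 further pathway genes measured, mutant replicate 1 was the highest of the 6 arrays for 21, against 27.6% of all genes. The genes given here are among those 21. Stra6, the membrane receptor that takes up retinol, read 8.82, 8.0 and 7.92 in the mutants, against 8.0, 7.93 and 7.79 in the controls. Cyp1b1, a cytochrome that can oxidise retinol, read 6.09, 5.55 and 5.64 in the mutants, against 5.41, 5.63 and 5.41 in the controls. Tgm2, a transglutaminase that retinoic acid induces, read 7.44, 6.73 and 6.83 in the mutants, against 6.88, 6.73 and 6.46 in the controls. In each of these genes mutant replicate 1 was the highest array, and the other mutants lay within the controls or less than 0.1 from them. Their differences of 0.34, 0.28 and 0.31 were 0.06, 0.11 and 0.09 without mutant replicate 1. Rdh10, the main retinol dehydrogenase of the embryo, read 8.45 in mutant replicate 1 and 7.91 to 8.10 in the other 5 arrays, and its difference of 0.12 was -0.03 without that array.

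Markers of meninges and pericytes were high in the same array. Of 13 markers, mutant replicate 1 was the highest of the 6 arrays for 11, where it was the highest for 27.6% of all genes. The list averaged 8.33 in mutant replicate 1 and 7.39 to 7.46 in the other mutants, against 7.16 to 7.27 in the controls. Dcn, a proteoglycan of fibroblasts, lay 3.88 above the control mean in mutant replicate 1, on the log2 scale, and 1.71 and 0.67 above it in mutant replicates 2 and 3. Slc6a13, a transporter of meningeal cells, and Lum, a fibroblast proteoglycan, lay 2.46 and 2.35 above it in mutant replicate 1, and between -0.09 and 0.24 from it in the other mutants. Vtn and Pdgfrb, from the same list, lay 1.58 and 0.55 above the control mean in mutant replicate 1. In the other mutants they lay between -0.06 and 0.22 from it. Kcnj8 and Rgs5, pericyte genes, lay 0.02 and 0.08 above the control mean in mutant replicate 1, and differed by -0.02 and 0.05 between the groups. Ptgds, a meningeal lipocalin that can bind retinoids, was the 1 marker called, at 8.40, 8.39 and 8.29 in the mutants, against 7.91, 7.96 and 7.81 in the controls. It rose by 0.47 (limma adjusted p = 0.0379) and lost the call in all 6 fits with 1 array left out (adjusted p = 0.0804 to 0.177), with differences of 0.43 to 0.50. The list median of 0.38 was 0.19 without mutant replicate 1. The part of meningeal tissue in the Aldh1a2 and Rarb values was not tested; with that array left out, the Crabp1 difference was -1.07 and was called.

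**Figure D3:**
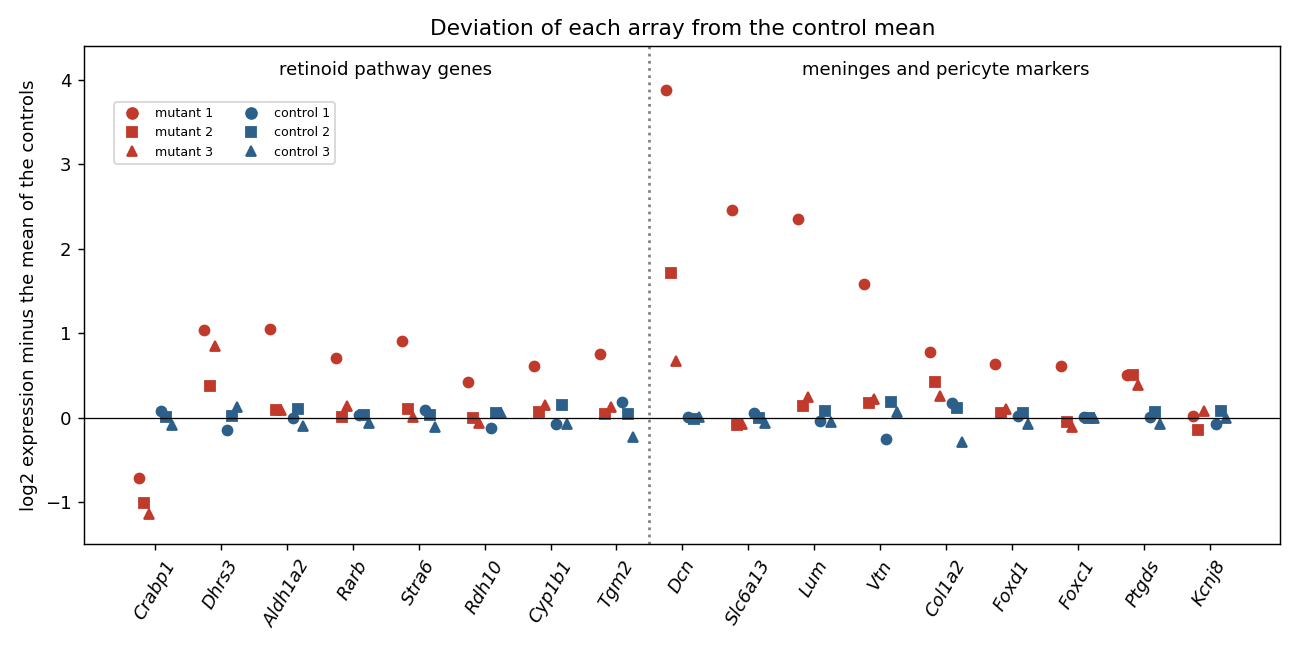
Log2 expression minus the mean of the 3 controls (y axis) for 8 retinoid pathway genes and 9 markers of meninges and pericytes, by array (mutants red, controls blue). Mutant replicate 1 (red circles) is set apart for Aldh1a2, Rarb, Stra6, Cyp1b1, Tgm2, Dcn, Slc6a13, Lum and Vtn, while for Crabp1 all 3 mutants are low.

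The rest of the pathway was read from a list of 64 further genes, of which 58 were measured. None was called, in either direction, by limma or by limma-trend. At an unadjusted limma p under 0.05 there were 8, all higher in the mutants, where 6.05% of all genes passed that level and 4.53% passed it higher in the mutants. Positive differences were seen for 39 of the 58, as for 60.34% of all genes, and the median was 0.04. The differences lay between -0.12 and 0.34, and Crabp1, Dhrs3 and Aldh1a2 lay outside that range.

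Among 7 measured binding and uptake genes, Stra6 at 0.34 and Rbp7, a cellular retinol-binding protein gene, at 0.16 differed most. Rbp4, the carrier of retinol in blood, differed by 0.02 (95% interval -0.15 to 0.20). Fabp5, a fatty acid-binding protein that can deliver retinoic acid to another receptor, differed by -0.11 (95% interval -0.34 to 0.12). Its probe set number lies between those of Crabp1 and Stra6, genes of chromosome 9, whereas Fabp5 is on chromosome 3. The position of that probe set was not checked, so the value may not be that of Fabp5. Among 21 synthesis and storage genes the range was -0.06 to 0.16, with Dhrs4, a retinaldehyde reductase, and Bco2, a carotenoid-cleaving oxygenase, both at 0.16 (limma adjusted p = 0.744 and 0.714). Aldh1a1, the third retinaldehyde dehydrogenase, differed by 0.03 (95% interval -0.12 to 0.18).

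Among 4 breakdown genes, Cyp1b1 at 0.28 and Cyp2s1, another cytochrome that can act on retinoids, at -0.12 differed most. Cyp26a1, whose promoter repeat is given above, read 5.53, 5.47 and 5.49 in the mutants, against 5.54, 5.42 and 5.39 in the controls, a difference of 0.04 (95% interval -0.10 to 0.19). Cyp26c1, the remaining CYP26 enzyme gene, differed by -0.03 (95% interval -0.23 to 0.17). The groups of both overlapped. None of the 3 CYP26 genes was called.

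Among the other receptors, Rxrb, the retinoid X receptor beta, read 9.62, 9.54 and 9.48 in the mutants, against 9.43, 9.29 and 9.33 in the controls. Its groups did not overlap, and the difference of 0.20 ± 0.07 (SE) was not called (limma adjusted p = 0.558). Rarg, the gamma receptor, differed by -0.06 (95% interval -0.20 to 0.08), and Rxra, the alpha partner, by 0.05 (95% interval -0.15 to 0.26). Among 7 cofactors, Nrip1, a corepressor that binds liganded receptors, at 0.17 and Ncoa1, a coactivator, at 0.15 differed most, together with Lcor at -0.12.

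Among 15 genes known to respond to retinoic acid, 13 had positive differences, where 60.34% of all genes did. None was called, and the median was 0.09, against 0.019 over all genes. Mutant replicate 1 was the highest of the 6 arrays for 7 of the 15, where it was the highest for 27.6% of all genes. Tgm2 at 0.31 and Meis1, a homeobox partner of Hox proteins, at 0.29 differed most. Meis1 read 7.92, 7.87 and 8.09 in the mutants, against 7.64, 7.60 and 7.78 in the controls, with groups that did not overlap and a limma adjusted p of 0.37. Rarres2, the chemerin gene first found as retinoid-induced, read 6.83, 6.98 and 6.88 in the mutants, against 6.62, 6.53 and 6.78 in the controls, a difference of 0.25 (limma adjusted p = 0.465). Of these 15 genes, 4 had all mutants above all controls, where 7.69% of all genes did.

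**Figure D4:**
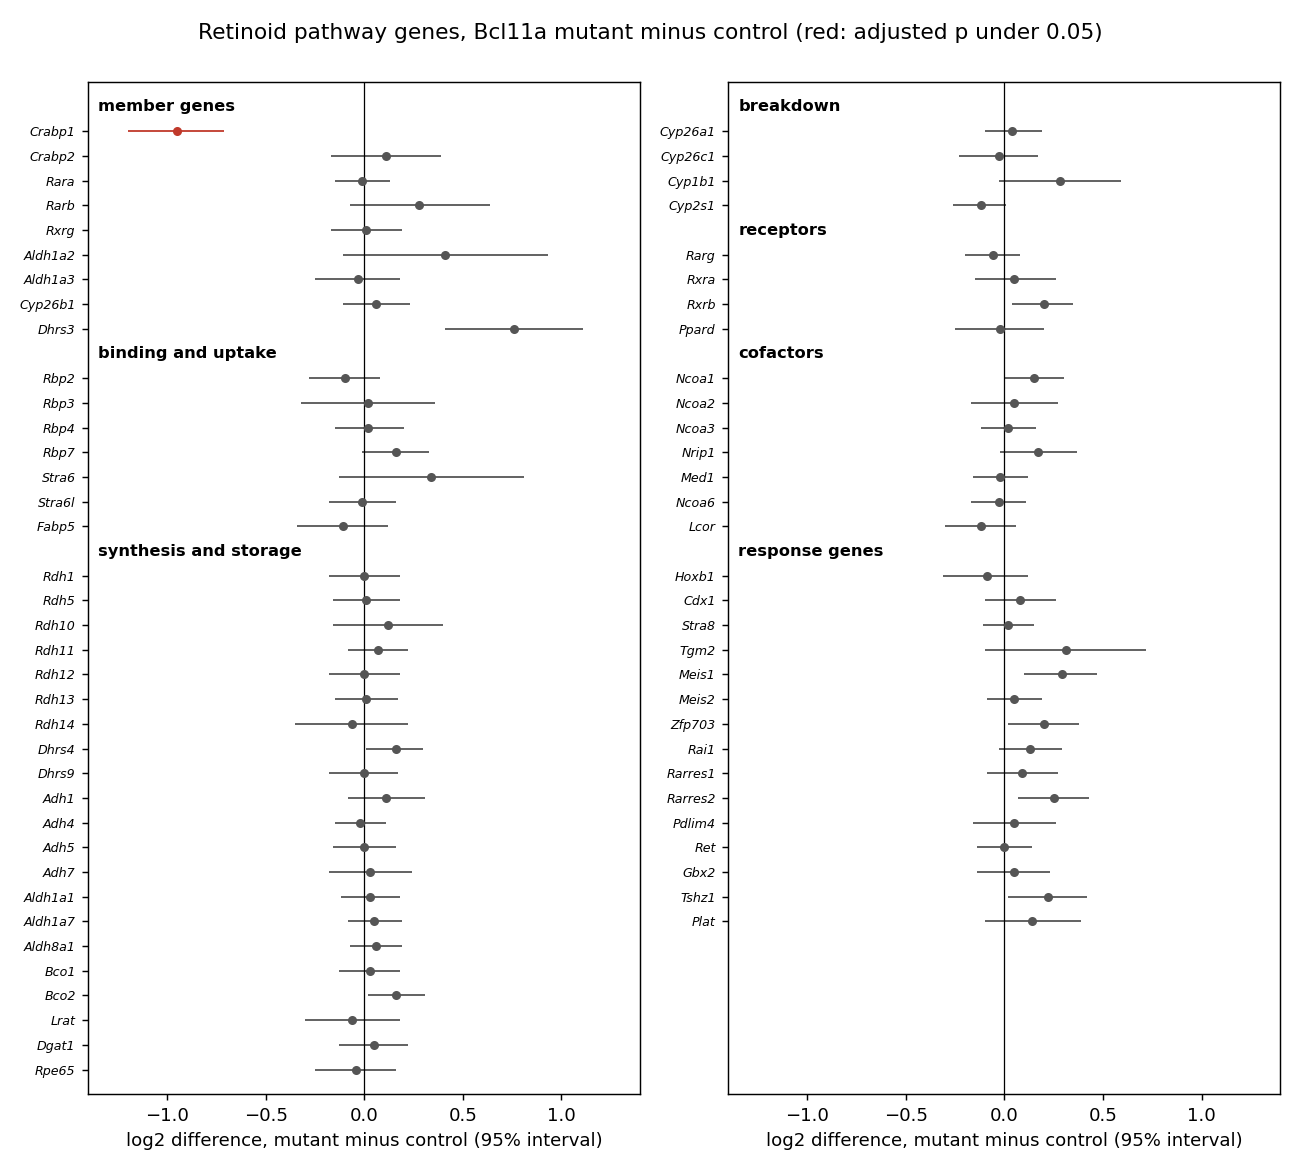
Log2 difference of mutant minus control (x axis) with its 95% interval for the 9 genes and 58 further pathway genes, grouped by role, with genes called in red. Crabp1 is the 1 gene called, at -0.95, and the 58 further genes lie between -0.12 and 0.34.

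The genes whose values were most like those of Crabp1 over the 6 arrays were read by Pearson correlation among all named genes, as a description with no test. The 5 highest were Nr1d1 (0.99), a nuclear receptor of the circadian clock, Epb41l3 (0.988), a membrane skeleton protein gene, and Shc3, Apobec1 and Nptx1 (0.984 each), which encode a neuronal adaptor, an RNA-editing deaminase and a neuronal pentraxin. The 6 points of each correlation share the split between mutants and controls. Apobec1 read 8.15, 7.91 and 7.91 in the mutants, against 8.77, 8.84 and 8.85 in the controls. Nptx1 read 8.85, 8.77 and 8.67 in the mutants, against 9.14, 9.16 and 9.19 in the controls. For all 5 the mutants lay below the controls, with log2 differences of -0.21 for Nr1d1, -0.27 for Epb41l3, -0.38 for Shc3, -0.83 for Apobec1 and -0.40 for Nptx1.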

How the data were processed

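RNA of 6 embryos was measured on 1 Affymetrix Mouse Gene ST array each. Per the submitters' processing notes, the authors used Affymetrix Expression Console and RMA, which corrects background, quantile-normalizes and summarises probe sets, and the deposited values were read as log2 from their range of 3.409 to 13.75. RMA compresses differences of dim genes. No source used here names the genome build or software versions. Arrays have no read depth, so the number of arrays limits precision.

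Gene names came from the platform annotation in GEO, which may be out of date. Of 35556 probe sets, 21789 had 1 symbol, 21698 of these matched RefSeq genes of GRCm38.p6 by Entrez number, and 1621 had several symbols and were left out. Per gene, the probe set with the highest mean was used (19938 genes). Mutant minus control was fitted with limma 3.58.1 (R 4.3.3; lmFit, then eBayes, no covariate), with Benjamini-Hochberg adjustment over all genes. Errors are SDs over 3 arrays or moderated SEs, and intervals are 95% from that fit. On simulated arrays with 200 of 19938 genes changed by 1 log2 unit, 200 were recovered with 11 false calls. The simulated noise was independent between genes and arrays, and no array stood apart as mutant replicate 1 did. That recovery therefore does not give the sensitivity in the real arrays.

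The 9 genes, the further lists, markers and naming rule were chosen with earlier results of these data known. The rule named the 9 genes, Bcl11a, Sema3c, called genes and the 2 largest differences of each list, 11 set pathway genes, and the 5 genes most correlated with Crabp1. Other list members named were chosen after their values were seen, and not every gene the rule names is printed.  Alternatives left out each array, added the replicate number, sex or array weights, changed scaling, variance prior, dim-gene filter or probe set choice.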

Additional observations from a re-analysis of the deposited data

How the results depend on the processing

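The number of genes called was 57, and 20 to 50 with 1 array left out (20 when control replicate 2 or mutant replicate 2 was dropped, 25 for mutant replicate 1 and 33 for mutant replicate 3), where fewer arrays entered the fit. It was 24 with sex as a covariate and 217 with array weights, and the cause was not tested. Fitting replicate numbers as a replicate block gave 34 and kept the Crabp1 call. Deviations from the group means correlated by 0.03, -0.14 and 0.08 between arrays of the same number, so the numbers were not read as pairs. Of the 9 genes, the number called was 1, and 0 to 1 with 1 array left out. Of the 58 further genes it was 0, and 1 with array weights, Rarres2. Crabp1 kept its direction in all 13 alternative fits (-1.07 to -0.86) and its call in 11, all but those without control replicate 2 and mutant replicate 2. Among genes that were not called, signs turned for 3 of the 9, Rara (-0.04 to 0.02 with 1 array left out, 0.03 with array weights and 0.01 with sex), Rxrg (-0.05 to 0.08) and Aldh1a3 (-0.13 to 0.03), and for Rdh10 (-0.03 to 0.21 with 1 array left out), Rbp4 (-0.03 to 0.07, -0.06 with array weights and -0.02 with sex), Fabp5 (0.01 with array weights), Cyp26c1 (-0.12 to 0.03), Rxra (-0.04 to 0.11) and the choroid plexus marker Otx2 (-0.03 to 0.19), and the cause was not tested. Limits are the 3 arrays per group and the compression of dim signals.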
